A study of Danio rerio with 6 samples.

Results

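The homeobox genes that divide the early brain into regions were followed in RNA-seq libraries of zebrafish embryos that carry CRISPR deletions in *dusp6* and *dusp2*, genes of phosphatases that act on the MAP kinase ERK. Members were chosen by gene name, as the Dlx, Emx, Gsx, Nkx, Irx, Gbx, Engrailed, Pax, Dbx, Vax, Rx, Vsx, Barhl, Hmx, Msx, Meis and Pbx families. This gave 97 of the 23150 genes in the count table, and 94 of the 97 passed the filter on low counts. All are called homeobox genes here by family name. Whether each holds a homeobox was not checked, and *pax1a*, *pax1b* and *pax9* are described below as paired-box genes only. The mutant group is 3 libraries from *dusp2um287/um287;dusp6um286/um286* embryos, whose parents were themselves homozygous for both deletions, and the wildtype group is 3 libraries from *dusp2+/+;dusp6+/+* embryos. Each library came from a pool of whole embryos at 18 hpf, without chorion and yolk. The wildtype fish were of the Ekkwill strain. Each mutant allele came from a single founder fish, so background differences between the lines cannot be told apart from the deletions. The paper also reports that a large part of the embryos of this mutant cross stall at the first cell division. Those embryos die before the stage sampled, so the mutant pools are of survivors. The part of this selection in the results below was not tested.

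A homeobox encodes the homeodomain, a DNA-binding fold shared by a large class of transcription factors. In the neural plate and tube, each of these genes is switched on in a band, patch or column, and their combination tells a cell its position along the head-to-tail and back-to-belly axes. FGF ligands, which signal through ERK, are made at the anterior edge of the neural plate and at the boundary of midbrain and hindbrain, and are known to act on several of these genes there. Some members of the same families work outside the brain, in the sclerotome, heart, pharynx and placodes.

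The expected counts sum to between 36310355 and 45161306 per library, and the depths of the groups overlap. Levels are CPM, expected counts scaled to library size with TMM factors, and can be compared between libraries but not between genes of different length. *dusp6* was at 28.5 to 32.4 CPM in mutant libraries and at 212 to 229 CPM in wildtype libraries, and *dusp2* at 0.0719 to 0.187 CPM against 0.934 to 1.55 CPM, in the direction of the labels. Mutant library D stood apart: over all genes tested, its chi-square per degree of freedom against mutant libraries A and C was 15.5 and 12.8, against 4.34 between A and C. Values without it are given where they change a result. Of markers for 12 tissues and for early differentiation, 42 genes were found, and none was at 0 in any of the 6 libraries. The 5 somite and muscle markers summed to 593 to 1129 CPM in mutant libraries and 1253 to 1369 CPM in wildtype libraries, where the low end was mutant library D alone (1109 and 1129 CPM in mutant libraries A and C). The log2 ratio of the mean muscle sums was -0.47, and -0.23 without library D. Of the 5 muscle markers only *mylpfa* and *myog* were called lower, and *myod1* had a log2 fold change of 0.04. The 12 early differentiation markers, which share genes with the muscle and blood lists, summed to 818 to 1387 CPM in mutant libraries and 1462 to 1646 CPM in wildtype libraries, a log2 ratio of -0.39, or -0.18 without library D, with 3 markers called higher and 4 lower. The 4 epidermal markers summed to 25571 to 31259 CPM in the mutants, against 18257 to 19186 CPM in wildtype, and the 4 blood markers, all called higher, to 140 to 174 CPM against 96.5 to 115 CPM. The epidermal sum was almost all *krt4*, *krt5* and *cyt1*, which were called higher. The fourth epidermal marker, *tp63*, was not called (log2 fold change 0.05, adjusted p = 0.72 by edgeR), and its groups overlapped. Sums of the notochord and floor plate, neural crest and germ cell (*nanos3* alone) markers were also higher in every mutant library, and that of the 2 pronephros markers was lower. Of the pronephros markers *cdh17* was called lower, and *wt1a* was not called (log2 fold change -0.17, adjusted p = 0.36 by edgeR). Of the 3 neural crest markers only *tfap2a* was called higher (mean 190 CPM in the mutants against 162 CPM in wildtype). The other neural crest markers, *sox10* and *foxd3*, did not pass the test. The 4 neural progenitor markers (*sox2*, *sox3*, *sox19a*, *sox19b*) summed to 845 to 966 CPM in mutant libraries and 916 to 965 CPM in wildtype libraries. The 3 neuron markers found, *elavl3*, *elavl4* and *neurog1*, summed to 219 to 232 CPM in the mutants against 225 to 230 CPM in wildtype, so both neural sums overlapped. Single neural markers did move: *neurog1* was higher (28.6 to 29.1 CPM in the mutants against 21.1 to 22.1 CPM in wildtype, log2 fold change 0.42, adjusted p = 0.0002) and *sox3* lower (233 to 275 CPM against 291 to 308 CPM, log2 fold change -0.20, adjusted p = 0.022). The part of these differences in tissue and stage markers in the results below was not tested.

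None of the homeobox genes tested passed a 2-fold change in the edgeR fit of all 6 libraries, but many shifted by less, mostly downward. By edgeR's quasi-likelihood test, 0 of the 94 members passed a 2-fold change together with the adjusted p limit of 0.05, where 4.95% of all 20021 genes tested did. DESeq2's Wald test also called 0 members on those terms and limma-voom called 1. By edgeR, 50 members had an unadjusted p under 0.05 at any size of change. The share of all genes at that unadjusted p was not taken, so this count cannot be read as particular to the members. Leaving out mutant library D took *dlx2b* and *eng1a* past 2-fold, and leaving out wildtype library C, mutant library A or mutant library C left 1 member past it each time. Without the limit on size, 41 members passed the adjusted p (43.6%), against 34.5% of all genes tested. Of these, 33 were lower in the mutants (35.1% of members, against 17.1% of all genes tested) and 8 were higher (8.51% of members, against 17.4% of all genes tested). Without wildtype library A, 5 were higher and 28 lower. The median log2 fold change, mutant over wildtype, was -0.14 over the 94 members and -0.00065 over all genes tested, and 69 members lay below 0 (73.4%, against 50.1% of all genes). The highest value was 0.79, for *rx3*. The groups did not overlap in 55 members (58.5%), against 49.1% of all genes tested, with 45 of them lower in the mutants (24.8% of all genes tested) and 10 higher (24.3% of all genes tested). All 41 called members were among these 55. In pools of whole embryos, fewer cells of a type and less RNA per cell cannot be told apart. Such pools also do not show in which tissue a gene changed, so the regions named below are only those of the lists.

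**Figure D1:**
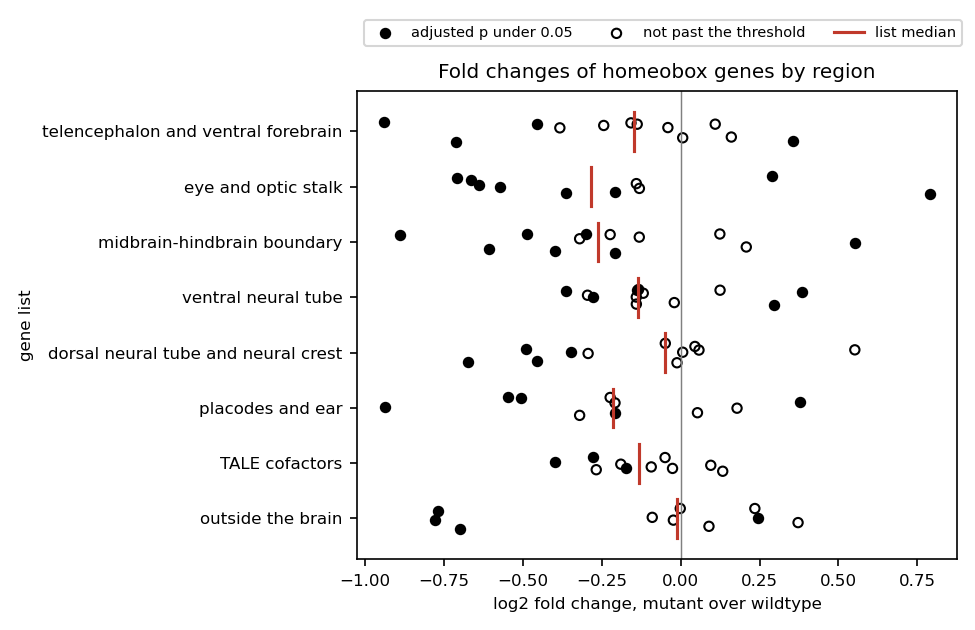
Log2 fold changes, mutant over wildtype, of the homeobox genes tested, in 8 lists by region, each point a gene and the red line the median of its list. Filled points passed an adjusted p under 0.05 and open points did not. The medians of all 8 lists lie below 0, from -0.29 for the eye and optic stalk to -0.01 for the genes outside the brain, and each list holds genes on either side of 0.

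**Figure D2:**
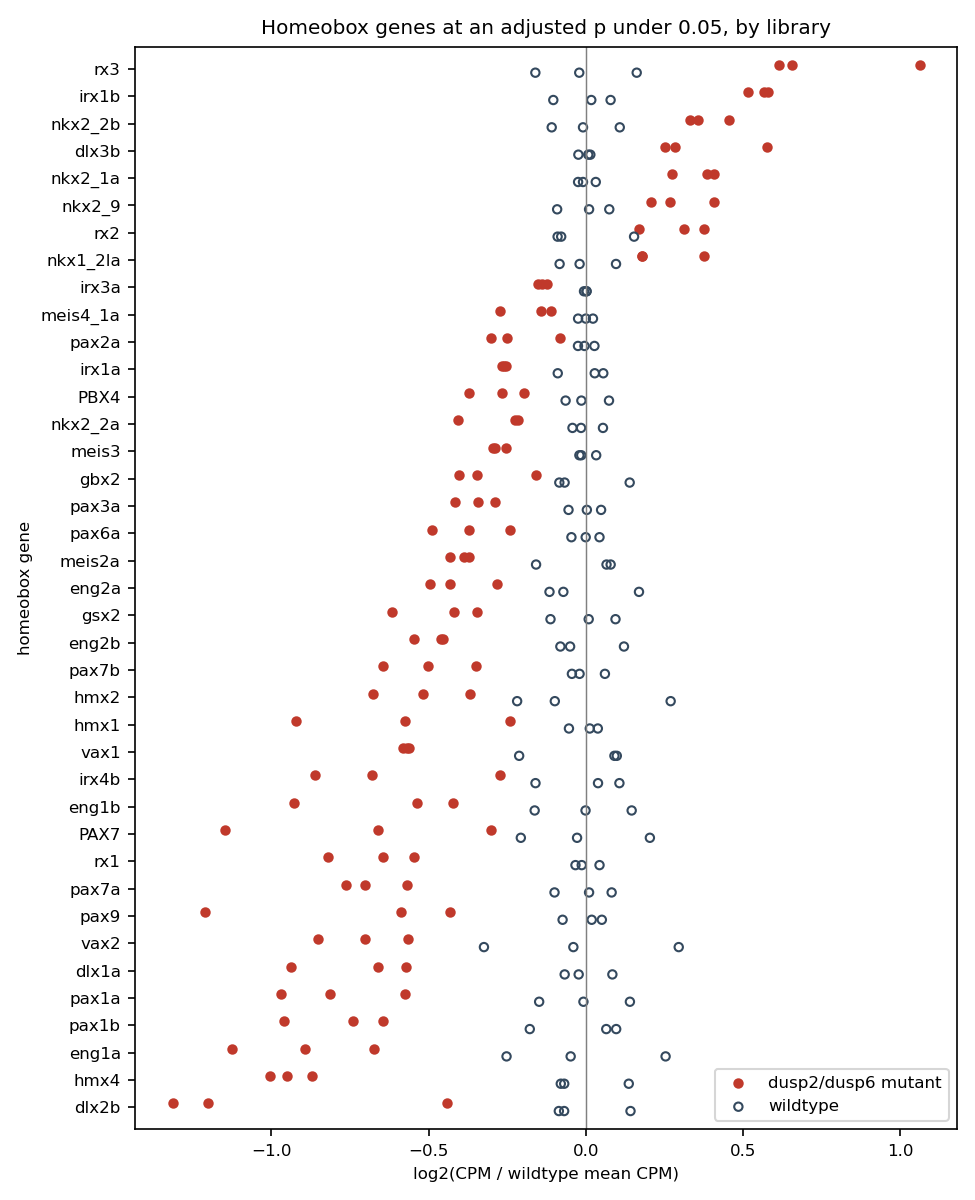
Level of 39 of the 41 called homeobox genes in each library, as the log2 of its CPM over the mean CPM of the wildtype libraries. Filled points are the 3 mutant libraries and open points the 3 wildtype libraries. In every row the mutant points lie to one side of all wildtype points, to the right in the upper 8 genes and to the left in the other 31.

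The eye genes went in opposite directions. Of 10 genes of the eye and optic stalk list, 6 were lower in the mutants, 2 were higher and 2 did not pass the test. For this list and those below, the shares over all genes tested are 17.1% lower and 17.4% higher. The lists share genes: of the called ones, *pax2a*, *pax6a* and *gsx2* are in more than 1 list and are counted in each. *rx3* heads the eye program in zebrafish: it is expressed in the eye field of the neural plate and is needed for the optic vesicles to form. Mutant libraries A, C and D held 15.7, 11.9 and 11.5 CPM of *rx3*, against 6.73, 7.42 and 8.42 CPM in wildtype libraries A, B and C. All mutant libraries were higher, library A most, and the log2 change of 0.79 (standard error 0.13, adjusted p = 0.00085) was the largest rise among the members. *rx1*, a related gene of retinal progenitors, went the other way, with 40.5, 37.9 and 33.5 CPM in the mutant libraries against 61.0, 57.9 and 58.7 CPM in the wildtype libraries. On the log2 scale it changed by -0.67 (standard error 0.066, adjusted p = 3.1e-05), and the groups lay well apart. *rx2*, also expressed in retinal progenitors, was at 12.7, 11.0 and 12.1 CPM in the mutant libraries, against 9.18, 10.9 and 9.25 CPM in the wildtype libraries. Here the nearest libraries of the groups almost touched. The log2 change of *rx2* was 0.29 (standard error 0.094, adjusted p = 0.033), and the call was lost without wildtype library A (adjusted p = 0.118), wildtype library C (0.126) or mutant library A (0.102). *rx1* was not among the genes that the naming rule selects for full values, and it was added after its values were seen, as were *vax1*, *pax2a*, *pax3a*, *gsx2*, *meis3* and *dlx2a*.

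The optic stalk and ventral retina are set apart by *vax1* and *vax2*, and both were lower. *vax1* was at 11.9, 11.8 and 11.9 CPM in the mutant libraries, against 18.8, 15.2 and 18.7 CPM in the wildtype libraries, -0.57 on the log2 scale (standard error 0.089, adjusted p = 0.00063). The mutant libraries differed little from each other, and wildtype library B was the lowest of its group. *vax2* was scarce, with 40 to 49 counts per mutant library and 52 to 98 per wildtype library (log2 fold change -0.71, standard error 0.22, adjusted p = 0.027). Its call was lost without wildtype library A (adjusted p = 0.0634), wildtype library C (0.14) or mutant library C (0.0891). *pax6a*, a conserved regulator of eye and forebrain and the gene with the most counts in the list, was at 71.2, 65.1 and 59.9 CPM in the mutants, against 86.8, 81.6 and 84.2 CPM in wildtype (log2 fold change -0.36, standard error 0.061, adjusted p = 0.001). Its duplicate *pax6b* had a log2 fold change of -0.14 (adjusted p = 0.18), and *vsx1*, a gene of later bipolar cells, one of -0.13 (adjusted p = 0.59).

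**Figure D3:**
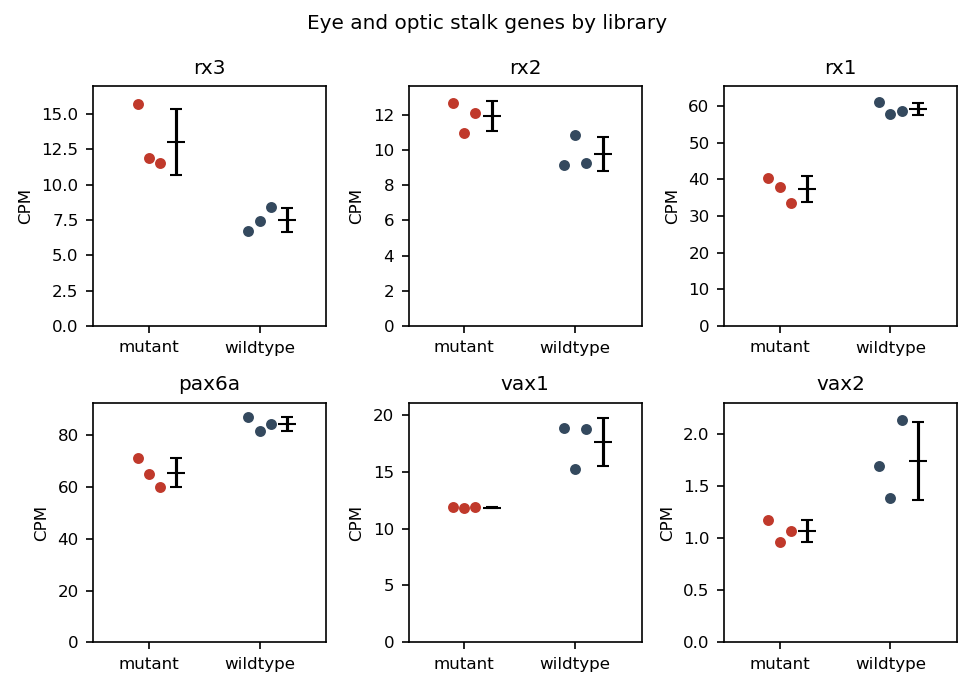
CPM of 6 eye and optic stalk genes in each mutant library and each wildtype library, with the mean and SD of each group (n = 3 libraries each) as a bar beside the points. *rx3* and *rx2* were higher in the mutants, and *rx1*, *pax6a*, *vax1* and *vax2* were lower. Each panel has its own scale from 0.

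Within a library, the ratio of 2 genes does not depend on how libraries are scaled. The log2 ratio of *rx3* to *rx1* counts was -1.53 ± 0.156 in the mutant libraries and -2.98 ± 0.19 in the wildtype libraries (SD, n = 3 each), a difference of 1.45. The ratio of *rx2* to *rx1* differed by 0.96 on the same scale. In both ratios no mutant library overlapped a wildtype library, which follows from the choice of genes. The first gene of each ratio was higher, and the second lower, in every mutant library than in every wildtype library. With 3 libraries in each group, an exact two-sided permutation test cannot give a p under 0.1, and each of the 5 ratios examined, which were picked after the values of the genes were seen, gave that value (0.1 also after adjustment over the 5). That outcome was fixed by the choice of genes and adds nothing to the calls of the single genes.

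**Figure D4:**
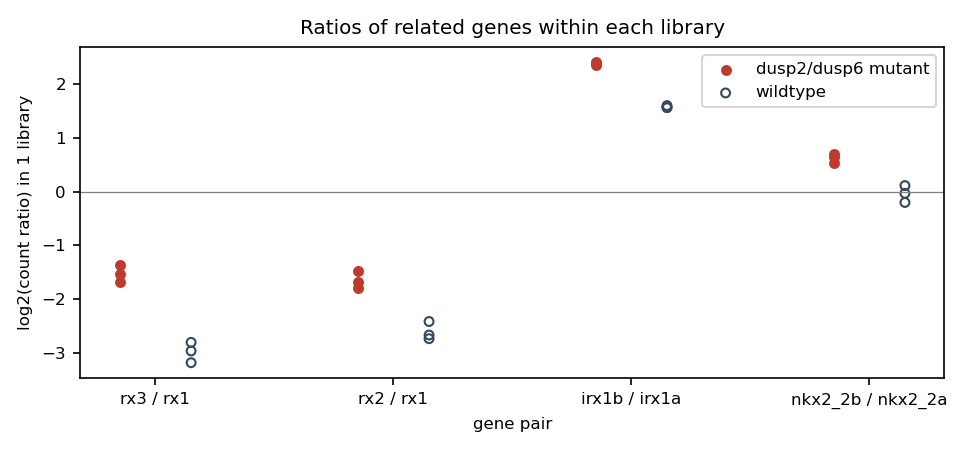
Log2 ratio of the counts of 2 related homeobox genes within each library, with mutant libraries as filled points and wildtype libraries as open points. The ratio was higher in every mutant library than in every wildtype library for each of the 4 gene pairs drawn. This had to be so, since each pair joins a gene higher in every mutant library with a gene lower in every mutant library. Levels of different gene pairs also depend on gene length, so only the distance between the groups can be read.

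Of the 12 genes listed for the boundary of midbrain and hindbrain, 6 were lower in the mutants, 1 was higher and 5 did not pass the test. The boundary is an organizing center that is held in place by FGF and Wnt signals. Levels are of whole embryos, so these changes cannot be placed at this boundary. The Engrailed genes, which are expressed across this boundary and maintain midbrain identity, were lower in all 4 copies. *eng2b* had the most counts of them, with 36.04, 33.9 and 35.9 CPM in the mutant libraries against 53.8, 46.7 and 47.7 CPM in the wildtype libraries. On the log2 scale it changed by -0.49 (standard error 0.062, adjusted p = 0.00018). *eng2a* was at 17.9, 15.4 and 16.1 CPM in the mutants, against 24.5, 20.7 and 20.1 CPM in wildtype (log2 fold change -0.40, adjusted p = 0.0051). Wildtype library A was the highest in both genes, and the groups did not overlap in either. *eng1b* was at 5.15, 5.57 and 3.93 CPM in the mutants, against 8.26, 6.67 and 7.46 CPM in wildtype (log2 fold change -0.61, adjusted p = 0.0057). *eng1a*, the scarcest, had 40 to 47 counts per mutant library and 63 to 89 per wildtype library. On the log2 scale it changed by -0.89 (standard error 0.21, adjusted p = 0.0078), and -1.01 without mutant library D, which takes it past 2-fold.

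*gbx2*, which marks the hindbrain side of the boundary, was lower by a smaller amount (log2 fold change -0.30, adjusted p = 0.023), and its call was lost without wildtype library A (adjusted p = 0.101), mutant library A (0.0632) or mutant library C (0.092). *pax2a*, needed in zebrafish for the boundary to form, was at 62.4, 55.5 and 53.6 CPM in the mutants and at 65.9, 67.4 and 65.0 CPM in wildtype. The log2 fold change was -0.21 (adjusted p = 0.018), not past the threshold without wildtype library B (0.0618) or mutant library C (0.0697). The related *pax2b*, *pax5* and *pax8* had log2 fold changes of -0.32, -0.13 and -0.22, with adjusted p from 0.12 to 0.35. *irx1b*, an Iroquois gene of the zebrafish midbrain and anterior hindbrain, was the exception in this list. The mutant libraries held 111, 107 and 112 CPM of it, against 69.9, 76.0 and 79.3 CPM in the wildtype libraries. It rose by 0.55 on the log2 scale (standard error 0.052, adjusted p = 2.3e-05), the smallest p of any member. *irx7*, which acts together with *irx1b* in this region, had a log2 fold change of 0.21 (adjusted p = 0.07).

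In the ventral neural tube, where Hedgehog signals from the notochord and floor plate set the order of progenitor columns, 2 of 12 genes were higher in the mutants and 3 were lower. Beside these counts, 17.4% of all genes tested were higher and 17.1% lower. The count table writes *nkx2_2b* for the usual symbol *nkx2.2b*, and likewise for other names with a point. *nkx2_2b*, a gene of the most ventral progenitors, was at 14.7, 15.7 and 14.4 CPM in the mutant libraries and at 12.3, 10.6 and 11.4 CPM in the wildtype libraries (log2 fold change 0.38, standard error 0.08, adjusted p = 0.0036). *nkx2_9*, expressed in the same cells beside the floor plate, was at 14.5, 12.6 and 13.1 CPM in the mutants, against 10.2, 11.0 and 11.5 CPM in wildtype. Its rise of 0.30 on the log2 scale (adjusted p = 0.017) was not past the threshold without wildtype library A (0.0716) or mutant library A (0.065). *nkx2_2a*, the duplicate of *nkx2_2b*, was lower, at 10.1, 10.04 and 8.87 CPM in the mutants against 11.4, 12.2 and 11.6 CPM in wildtype. The log2 fold change was -0.28 (adjusted p = 0.023), and the call was lost without wildtype library B (0.0793) or C (0.061). Of the list, *irx3a* had the most counts, with 114, 113 and 116 CPM in the mutants against 126, 125 and 126 CPM in wildtype. This small fall of 0.14 on the log2 scale (adjusted p = 0.018) was not past the threshold without wildtype library C (0.061) or mutant library C (0.0635). *pax6a* was also lower, as given with the eye genes. The remaining genes of the list did not pass the test. Their log2 fold changes were 0.12 for *nkx6_1*, -0.12 for *nkx6_2*, -0.13 for *dbx1a*, -0.30 for *dbx1b*, -0.02 for *dbx2*, -0.14 for *pax6b* and -0.14 for *irx3b*. Of the notochord and floor plate markers, *ntla* was at 130 ± 24.0 CPM in the mutants and 87.8 ± 5.89 CPM in wildtype, and *shha* at 55.3 ± 3.35 CPM in the mutants and 49.2 ± 1.53 CPM in wildtype (SD, n = 3 each). Their part in the values of the *nkx2* genes was not tested.

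In the dorsal neural tube and neural crest list, 4 of 11 genes were lower and 0 were higher at an adjusted p under 0.05 by edgeR (1, *msxa*, was higher at an unadjusted p under 0.05). The paired-box genes *pax3* and *pax7* mark dorsal progenitors, neural crest and, outside the nervous system, muscle precursors. *pax7a* was at 1.97, 1.72 and 1.79 CPM in the mutant libraries, against 3.09, 2.94 and 2.72 CPM in the wildtype libraries (log2 fold change -0.67, standard error 0.15, adjusted p = 0.0055). *pax7b* was at 11.0, 12.2 and 9.91 CPM in the mutants, against 15.3, 16.2 and 15.04 CPM in wildtype (log2 fold change -0.49, standard error 0.086, adjusted p = 0.0013). *pax3a* was at 35.3, 34.0 and 32.3 CPM in the mutants, against 44.6, 41.5 and 43.2 CPM in wildtype (log2 fold change -0.35, adjusted p = 0.0007). Mutant and wildtype libraries lay apart in *pax7a*, *pax7b* and *pax3a*. *pax3b*, the duplicate of *pax3a*, did not pass the test (log2 fold change -0.29, adjusted p = 0.24), and its groups overlapped. A further row named *PAX7*, which is not matched to a zebrafish gene in the name table, was also lower, by 0.66 on the log2 scale (adjusted p = 0.025), and lost its call without wildtype library A (0.0636), wildtype library C (0.109) or mutant library C (0.0663). The Msx genes, which mark the border of the neural plate under BMP signals, gave no call in any of 5 members. *msxb*, the gene of the list with the most counts, was at 69.4, 71.6 and 85.3 CPM in the mutants and 72.7, 74.0 and 72.5 CPM in wildtype, so that only mutant library D stood higher. Of the neural crest markers, *sox10* and *foxd3* had log2 fold changes of 0.07 and -0.04 and did not pass the test, and *tfap2a* had one of 0.23 (adjusted p = 0.03).

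The forebrain list of 12 genes gave 3 lower genes, 1 higher gene and 8 that did not pass the test. Among all genes tested, 17.1% were lower and 17.4% higher. *dlx1a*, a gene of the ventral telencephalon and diencephalon that specifies inhibitory neurons, was at 4.34, 4.08 and 3.36 CPM in the mutant libraries, against 6.84, 6.35 and 6.16 CPM in the wildtype libraries. On the log2 scale it changed by -0.71 (standard error 0.12, adjusted p = 0.0011). *dlx2b* had 31, 35 and 51 counts in mutant libraries A, C and D, against 76, 66 and 80 counts in wildtype libraries A, B and C. Mutant library D was the highest of its group. On the log2 scale the change was -0.94 (standard error 0.25, adjusted p = 0.013), it was -1.26 without mutant library D, and the call was lost without wildtype library A (0.055) or mutant library C (0.0524). *gsx2*, a progenitor gene that lies upstream of Dlx genes in the mouse, was at 4.70, 4.47 and 3.90 CPM in the mutants, against 6.01, 5.52 and 6.38 CPM in wildtype (log2 fold change -0.45, adjusted p = 0.011, 0.0528 without wildtype library C). The gene that rose was *nkx2_1a*, expressed in the hypothalamus and named *nkx2.4b* in RefSeq. It was at 9.32, 8.62 and 9.45 CPM in the mutants and at 7.08, 7.29 and 7.01 CPM in wildtype (log2 fold change 0.36, standard error 0.086, adjusted p = 0.0081). The related *nkx2_1b* of the same region had a log2 fold change of -0.14 (adjusted p = 0.295). *dlx5a*, with the most counts in the list, was at 22.6, 26.5 and 31.3 CPM in the mutants and 25.9, 24.2 and 24.3 CPM in wildtype, and the groups overlapped. The Emx genes of the dorsal telencephalon did not pass the test, with log2 fold changes of -0.38 for *emx1*, 0.16 for *emx2* and -0.24 for *emx3*.

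In the placode and ear list, 4 of 10 genes were lower and 1 was higher. The lower genes include *pax2a*, which is also counted in the eye and boundary lists and is given with the boundary genes. They also include *hmx4* and *hmx1*, which act in the eye as well, so the count does not show a fall in the ear. *hmx4*, which is needed for eye development in zebrafish and is also expressed in the ear, was at 6.37, 6.74 and 6.14 CPM in the mutant libraries and at 13.6, 11.7 and 11.8 CPM in the wildtype libraries. The lowest wildtype library held more than any mutant library by a wide margin. On the log2 scale the change was -0.94 (standard error 0.092, adjusted p = 3e-05). Its relative *hmx1*, a gene of lens and retina, was lower by 0.55 on the log2 scale (adjusted p = 0.0099). *hmx2*, expressed in the otic vesicle, was lower by 0.51 (adjusted p = 0.041). That call was lost without wildtype library A (0.0694) or B (0.16), without mutant library A (0.0814), C (0.0527) or D (0.0809), and by DESeq2 (0.0651) and limma-voom (0.0511). *hmx3* did not pass the test (log2 fold change -0.21, adjusted p = 0.1). The gene that rose was *dlx3b*, which is required in zebrafish for the ear and nose placodes and is expressed along the border of the neural plate. It was at 87.3, 89.3 and 109 CPM in the mutants, against 74.0, 73.7 and 72.1 CPM in wildtype. Mutant library D was highest, and the log2 change of 0.38 (standard error 0.074, adjusted p = 0.0026) became 0.26 without it (adjusted p = 0.00024). *dlx4b*, which lies beside *dlx3b* and acts with it, had a log2 fold change of 0.18 (adjusted p = 0.13).

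Meis and Pbx proteins are homeodomain cofactors that bind DNA together with Hox proteins and are needed for hindbrain segments to form. Of 10 genes tested in this list, 3 were lower and 0 were higher by edgeR at an adjusted p under 0.05 (0 were higher at an unadjusted p under 0.05 as well). *meis3* was at 99.2, 96.7 and 96.4 CPM in the mutant libraries, against 117, 121 and 117 CPM in the wildtype libraries (log2 fold change -0.28, standard error 0.041, adjusted p = 0.00045). *meis2a* was lower by 0.40 on the log2 scale (adjusted p = 0.0018) and *meis4_1a*, named *meis1a* in RefSeq, by 0.17 (adjusted p = 0.024, lost without wildtype library B at 0.0645 or C at 0.0861). *meis2b*, the duplicate of *meis2a*, did not pass the test (log2 fold change -0.09, adjusted p = 0.14). The log2 fold changes of all 6 Meis rows lay below 0. *pbx4*, the main Pbx gene of the early zebrafish embryo, was at 395, 366 and 353 CPM in the mutants and 376, 386 and 373 CPM in wildtype, so the groups overlapped. A separate row in capitals, *PBX4*, was lower by 0.28 on the log2 scale (adjusted p = 0.01). It is not matched in the name table, and reads of closely related genes may have been divided between these rows.

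Outside the brain, 3 of the 10 genes tested were lower and 1 was higher, beside 17.1% lower and 17.4% higher over all genes tested. *pax1a*, *pax1b* and *pax9* are paired-box genes of the sclerotome, which forms the vertebrae, and of the pharyngeal pouches. *pax1a* had 56, 77 and 56 counts in mutant libraries A, C and D, against 108, 98 and 109 counts in wildtype libraries A, B and C (log2 fold change -0.77, standard error 0.17, adjusted p = 0.006). *pax1b* had 50, 42 and 42 counts in the mutants, against 73, 62 and 92 counts in wildtype (log2 fold change -0.78, standard error 0.19, adjusted p = 0.0099). *pax9* was at 2.71, 2.43 and 1.58 CPM in the mutants, against 3.78, 3.47 and 3.70 CPM in wildtype (log2 fold change -0.70, adjusted p = 0.012). In *pax9*, mutant library D was the lowest. *myog*, a marker of differentiating muscle, also fell, to 76.4 ± 19.7 CPM in the mutants against 120 ± 3.18 CPM in wildtype (SD, n = 3 each), while *myod1* was at 38.6 ± 7.29 CPM in the mutants and 37.6 ± 1.55 CPM in wildtype. The part of somite tissue in these values was not tested. The gene that rose was *nkx1_2la*, a gene of the posterior end of the neural axis, at 13.97, 13.96 and 16.02 CPM in the mutants against 11.6, 12.2 and 13.2 CPM in wildtype (log2 fold change 0.24, adjusted p = 0.041). Its call was lost without wildtype library A (0.142) or B (0.11), without mutant library C (0.0543) or D (0.118), and by DESeq2 (0.059). The heart genes *nkx2_5* and *nkx2_7* had log2 fold changes of 0.09 and 0.24 and did not pass the test.

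Sorted by family, the 16 Pax genes tested all had log2 fold changes below 0, from -0.78 to -0.09, and 9 of them were called lower. Of all genes tested, 17.1% were called lower and 17.4% higher. The Engrailed family was called lower in 4 of 4 genes, Hmx in 3 of 4, Vax in 2 of 2 and Meis in 3 of 6. The Nkx family gave 4 higher and 2 lower genes of 14 tested, and the Rx family 2 higher and 1 lower of 3. Barhl, Dbx, Emx and Msx genes, 14 in all, gave no call by edgeR. At an unadjusted p under 0.05 stood 6 of them, *barhl1a*, *dbx1a*, *dbx1b*, *emx1* and *emx3* with lower values in the mutants and *msxa* with higher ones. The share of all genes at that unadjusted p was not taken, and 34.5% of all genes tested passed even the adjusted p. The count of 6 therefore cannot be read as particular to these families. The 3 members not tested, *nkx6_3*, *nkx1_2lb* and *pbx3a*, had at most 17 counts in any library.

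Many of these genes exist in the zebrafish as duplicates, named a and b, that date from a genome duplication in teleost fish. Both copies could be tested in 18 pairs. In 6 pairs both copies were called, and in 4 of these, *eng1*, *eng2*, *pax1* and *pax7*, both were lower. Of single members 35.1% were called lower and 8.51% higher, against 17.1% and 17.4% of all genes tested. No count was made over pairs of genes that are not duplicates, so a shared fall does not show a tie between copies. In the other 2 pairs the copies went in opposite directions: *irx1b* rose and *irx1a* fell, and *nkx2_2b* rose and *nkx2_2a* fell. *irx1a* was at 21.0, 20.9 and 21.1 CPM in the mutant libraries and 23.6, 25.6 and 26.1 CPM in the wildtype libraries (log2 fold change -0.26, standard error 0.061, adjusted p = 0.0072). Within a library, the log2 ratio of *irx1b* to *irx1a* counts was 2.39 ± 0.0273 in the mutants and 1.58 ± 0.0207 in wildtype (SD, n = 3 each). For *nkx2_2b* to *nkx2_2a* it was 0.628 ± 0.0839 in the mutants and -0.0385 ± 0.157 in wildtype. The difference was many times the spread between libraries for *irx1*. The groups did not overlap for either pair, which follows from the choice of pairs, as each b copy was higher and each a copy lower in every mutant library. In 7 pairs 1 copy was called, and in 5 pairs neither was. A call in 1 copy alone does not show that the copies differ, and the difference was not tested in those pairs.

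**Figure D5:**
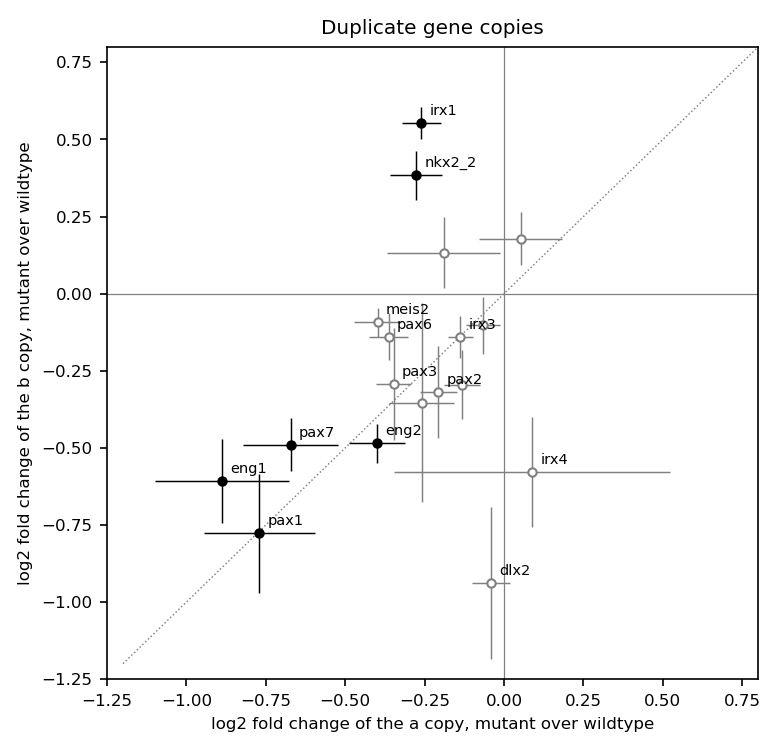
Log2 fold changes, mutant over wildtype, of the a copy and the b copy of 18 duplicated homeobox genes, with standard errors. Filled points mark the 6 pairs with both copies called, open points the others, and names are given where at least 1 copy was called. *eng1*, *eng2*, *pax1* and *pax7* lie at the lower left near the dotted line of equal change, and *irx1* and *nkx2_2* at the upper left, where the b copy rose and the a copy fell.

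Members were paired where they lie next to each other, or with at most 2 genes between them, among protein-coding genes of the zebrafish assembly GRCz12tu. This gave 18 pairs of members. In 6 of these pairs both genes were called, and in 3 of the 6 they went in opposite directions. Of single members 43.6% were called, against 34.5% of all genes tested. No count was made over pairs that are not neighbours, so these pairs do not show a property of neighbouring genes. *hmx4* and *hmx1* are neighbours and both fell, as did the neighbours *nkx2_2a* and *pax1a*, and *nkx2_2b* and *nkx2_1a* are neighbours and both rose. By contrast *pax1b*, which has 1 gene between it and *nkx2_2b*, fell, *nkx2_9* rose beside *pax9*, which fell, and *irx1b* rose beside *irx4b*, which fell (log2 fold change -0.58, adjusted p = 0.027). The call of *irx4b* was lost without wildtype library A (0.0911), wildtype library B (0.0736) or mutant library C (0.1). *dlx1a* fell, while *dlx2a*, which is adjacent to it and known in other vertebrates to share enhancers with it, was at 23.5, 23.4 and 25.2 CPM in the mutants and 25.1, 24.0 and 25.03 CPM in wildtype.

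A list of 57 other neural homeobox genes tested, from families outside the naming rule such as Otx, Lhx, Isl, Lbx, Tlx and Pou, gave 9 higher and 8 lower genes at an adjusted p under 0.05. The shares over all genes tested were 17.4% higher and 17.1% lower. The median log2 fold change of the 57 genes was -0.10, beside -0.14 for the members and -0.00065 for all genes tested. The largest fall there was that of *prox1a*, a gene of differentiating neurons and lens, with a log2 fold change of -0.79 (adjusted p = 0.00014). *lhx1a*, a gene of spinal interneurons and pronephros, rose by 0.71 (adjusted p = 0.00018). *hesx1*, expressed in the anterior forebrain, had the largest log2 fold change in that list, 1.29, at a low level of 0.647 CPM in the mutants and 0.262 CPM in wildtype.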

How the data were processed

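The authors checked the reads with FastQC, aligned them to the DanRer7 zebrafish transcriptome with RSEM 1.2.28, filtered out ribosomal RNA counts, and the deposited values are RSEM's expected counts for each gene without normalization. The submitters' processing notes also name the build GRCz10. The deposited tables further hold the authors' own comparison, which was not used. RSEM divides reads that fit several transcripts, and for 30 of the 94 tested members every library's count was whole (tolerance 0.005). No gene of the table sums to less than 11 counts. The count table holds 0 other columns of per-library values. Columns carry a genotype and a letter, so each was assigned to its genotype and is named by its letter (wildtype A, B, C and mutant A, C, D). Whether libraries of a genotype come from separate clutches is not given in the sources used here, so p-values measure only the spread between these libraries.

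Expected counts were rounded, filtered with filterByExpr, scaled by TMM and compared with edgeR 4.0.16 (glmQLFit, glmQLFTest) in R 4.3.3, with Benjamini-Hochberg adjustment over all 20021 genes. Standard errors are the log2 fold change divided by the square root of F. Alternatives were DESeq2 size factors, upper-quartile scaling, DESeq2 1.42.0, limma-voom 3.58.1, no filter, a stricter filter (more than 1 CPM in 3 or more libraries), and leaving out each library. The fit was tested on simulated counts. Genes given in full are the members past 2-fold, the 10 largest rises and falls among called members of at least 1 CPM, the member with the most counts in each list, and duplicate pairs with both copies called, plus the 7 genes named in the text as added after their values were seen. The members and lists were chosen with earlier results of these data known. Duplicates named a and b were paired only where RefSeq gives both the same stem. RefSeq's gene table matched 94 of the 97 members. Results of a few members are not reported here, while counts and medians cover all members.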

Additional observations from a re-analysis of the deposited data

How the results depend on the processing

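Of the 41 called genes, 27 stayed past an adjusted p of 0.05 under every alternative that could be run, 14 lost the call under at least 1 and 0 changed direction. DESeq2 size factors, upper-quartile scaling, no filter and the stricter filter each kept the same 41 calls. Leaving out each library gave 33 to 40 calls, 5 to 8 of them higher and 25 to 34 lower in the mutants, and a median log2 fold change of the homeobox genes from -0.21 to -0.14. The lowest count of higher genes, 5, came without wildtype replicate A, and the median of -0.21 without mutant replicate A, where the cause was not tested. Without mutant replicate D, 7 genes were higher and 33 lower. With a fold change over 2, limma-voom called 1 gene, and leaving out each library gave 0 to 2 genes. Without mutant replicate D these were *dlx2b* (-1.26) and *eng1a* (-1.01). Without mutant replicate D the sign changed in 6 of the 53 homeobox genes that were not called and in 0 of those called. Of the genes given in full these were 3, and leaving out each library gave values between -0.0195 and 0.219 for *dlx5a*, -0.0560 and 0.102 for *msxb*, and -0.0716 and 0.00455 for *pbx4*. *dusp2* did not pass the stricter filter. No paired analysis was possible because the columns of the count table carry letters and not the replicate numbers of the labels. Standard errors of the log2 fold changes ran from 0.039 to 0.73, so small changes of scarce genes were not detectable at this depth.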
